A study of Homo sapiens with 16 samples.

Results

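The 9 genes described here are *POU4F1*, *BAALC*, *UBASH3B*, *PAX5*, *TRH*, *CAV1*, *ROBO1*, *IGFBP7* and *SIPA1L2*, which were picked by name from the 60357 genes of the in vitro count tables because their transcripts are typical of leukaemia with the t(8;21) translocation. That translocation joins *RUNX1* to *RUNX1T1* (ETO), and the fusion protein RUNX1/ETO keeps the DNA-binding domain of RUNX1, occupies RUNX sites and can both repress and activate nearby genes. AML with t(8;21) is known for transcripts that normal myeloid cells hardly make, among them those of the neural transcription factor *POU4F1* and of the B-cell factor *PAX5*. *BAALC*, *UBASH3B* and *TRH* are also known as genes of this leukaemia.

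RNA was sequenced from Kasumi-1 and SKNO-1, human cell lines from AML that carry t(8;21) and of which the latter was grown with GM-CSF. Both lines received siRNA in lipid nanoparticles (LNPs) at 2 µg/ml for 24 h and were harvested on day 3. The siRNA siRE-mod is a chemically modified siRNA against the fusion site of *RUNX1/ETO*, and siMM-mod is its modified mismatch control; the labels give the genotype of the siMM-mod libraries as WT and that of the siRE-mod libraries as *RUNX1/ETO* knockdown. Each line had 3 libraries labelled siMM-mod and 3 labelled siRE-mod. All groups therefore share the translocation, the lipid carrier and the harvest day, untreated cells are not analysed here, and each cell line stands for 1 leukaemia. The labels do not say whether replicates were separate cultures, so p-values measure only the spread between these libraries, which may be technical.

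Between 60559466 and 147990959 reads fell on genes in a library, with a median of 89160101. Levels are given as normalized CPM, that is CPM after edgeR's TMM scaling over the 12 libraries. Apart from *CD34*, which was at only 0.108 to 0.627 normalized CPM in 6 libraries, the myeloid markers fixed for these lines were present in every library. Among them *MPO* was between 1783 and 22667 normalized CPM. No 2 libraries agreed within sampling noise (smallest chi-square per degree of freedom 26.2). In the 4 further libraries of Kasumi-1 cells from mice, 0.01997% to 0.0335% of the reads were on genes, and the 9 genes were listed at 0 along with *ACTB* and *GAPDH*, so these libraries give no level for any of them.

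The targeted gene went against several labels. *RUNX1T1*, which takes reads of both the fusion transcript and the intact gene, was at 297, 92.9 and 161 normalized CPM in the libraries labelled Kasumi-1 siMM-mod and at 44.4, 159 and 37.3 in those labelled Kasumi-1 siRE-mod. For SKNO-1 the siMM-mod label covered levels of 329, 298 and 127, and the siRE-mod label covered 124, 165 and 40.4. The groups overlapped in both lines, and *RUNX1T1* had a log2 fold change of −1.19 in each (SE 0.71 and 0.57, adjusted p = 0.392 and 0.491, edgeR). *CD34*, a surface protein of stem and progenitor cells, split the libraries further: it was at 117 to 421 normalized CPM in 6 libraries and at 0.108 to 0.627 in the other 6, and both lines and both siRNAs had libraries on each side. Over all genes 8 of the 12 libraries were nearest to a library of another label, by chi-square per degree of freedom, a distance that also grows with depth. SKNO-1 siRE-mod 3 differed from Kasumi-1 siRE-mod 3 by 74.8 and from its nearest own replicate by 1229, SKNO-1 siRE-mod 1 from SKNO-1 siMM-mod 3 by 72.5 and from its nearest replicate by 862, and Kasumi-1 siMM-mod 1 from SKNO-1 siMM-mod 1 by 93.96 and from its nearest replicate by 288. Whether labels or tables were exchanged between libraries was not tested. The means, fold changes and line contrasts given by label hold only as far as the labels do.

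The 9 genes were therefore read in a second way, by the measured *CD34* and then the measured *RUNX1T1* of each library. The 4 sets that result are not groups of the study, so their values are listed without means or tests, and always in the following order of libraries. *CD34*-expressing libraries with more *RUNX1T1* (297 to 329 normalized CPM) were those labelled SKNO-1 siMM-mod 1, SKNO-1 siMM-mod 2 and Kasumi-1 siMM-mod 1. *CD34*-expressing libraries with less *RUNX1T1* (92.9 to 127) were those labelled SKNO-1 siMM-mod 3, SKNO-1 siRE-mod 1 and Kasumi-1 siMM-mod 2. *CD34*-silent libraries with more *RUNX1T1* (159 to 165) were those labelled SKNO-1 siRE-mod 2, Kasumi-1 siMM-mod 3 and Kasumi-1 siRE-mod 2. *CD34*-silent libraries with less *RUNX1T1* (37.3 to 44.4) were those labelled Kasumi-1 siRE-mod 1, SKNO-1 siRE-mod 3 and Kasumi-1 siRE-mod 3. The level of *CD34* was not even inside either state. Among expressing libraries it was 417 to 421 normalized CPM with more *RUNX1T1* and 117 to 153 with less. Among silent libraries it was 0.108 to 0.141 with more and 0.444 to 0.627 with less. Differences by *RUNX1T1* and by *CD34* level inside a state therefore cannot be told apart. Of the 6 expressing libraries, 5 were thus labelled siMM-mod and 1 siRE-mod, and of the 6 silent libraries 1 was labelled siMM-mod and 5 siRE-mod, so that a difference between siRNA labels and a difference across *CD34* largely coincide.

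**Figure D1:**
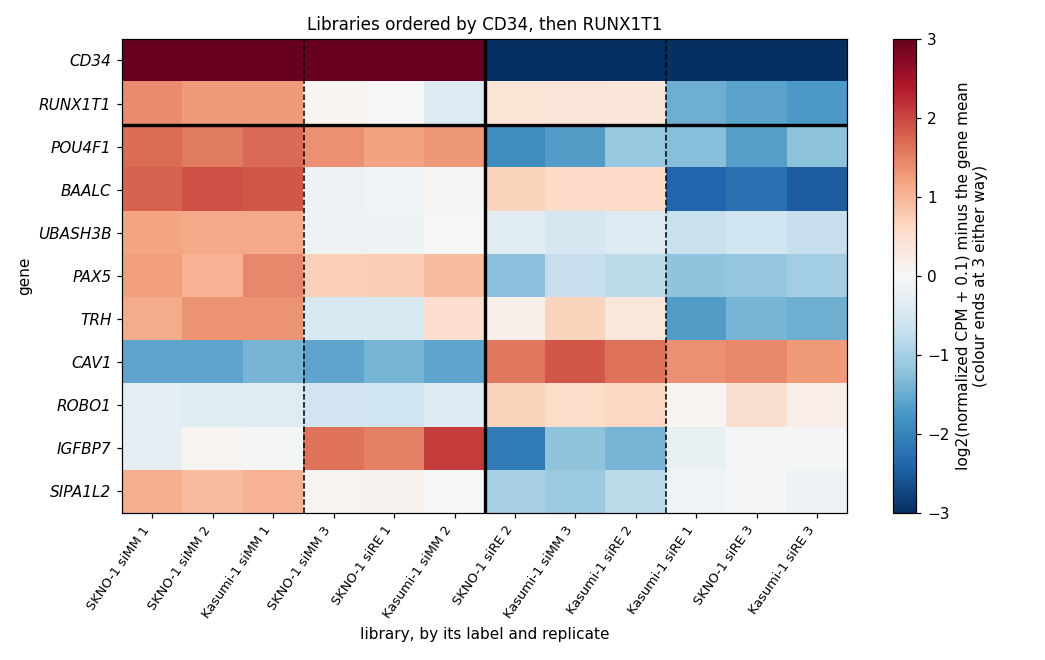
Heat map of *CD34*, *RUNX1T1* and the 9 genes (rows) in the 12 in vitro libraries (columns), as log2(normalized CPM + 0.1) minus the mean of the gene, with colours ending at 3 either way. The solid vertical line parts *CD34*-expressing from *CD34*-silent libraries and the dashed lines part libraries with more and less *RUNX1T1*. *POU4F1* and *PAX5* follow the solid line, *BAALC* and *TRH* follow the dashed lines, and *CAV1* and *ROBO1* are higher on the *CD34*-silent side.

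In these sets the 9 genes did not behave as 1 block. *POU4F1*, *PAX5* and *UBASH3B* were higher in each *CD34*-expressing library than in each silent library, and *ROBO1* and *CAV1* were lower, under TMM, library totals and DESeq2 size factors alike. *BAALC* and *TRH* overlapped across *CD34* and were higher with more *RUNX1T1* inside the expressing and the silent libraries, whereas *IGFBP7* was lower with more *RUNX1T1* inside each. *SIPA1L2* went opposite ways with *RUNX1T1* inside the expressing and inside the silent libraries, and so did the level of *CD34* itself. Inside each state the level of *CD34* parted the same libraries as *RUNX1T1*, here and for each gene below.

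*POU4F1* (ENSG00000152192.8, chromosome 13 from 78598362 to 78603552, minus strand, GRCh38) encodes a POU-domain transcription factor of sensory and retinal neurons. Its normalized CPM were 9.06, 8.47 and 9.33 in the *CD34*-expressing libraries with more *RUNX1T1*, and 7.38, 6.57 and 7.00 in those with less. The *CD34*-silent libraries had 0.700, 0.802 and 1.21 with more *RUNX1T1* and 1.10, 0.822 and 1.13 with less. The lowest expressing library was thus 5.44-fold above the highest silent library, while *RUNX1T1* did not order *POU4F1* within the silent libraries, and its order within the expressing libraries was lost when library totals replaced TMM. By label, *POU4F1* averaged 5.71 ± 4.41 (SD, n = 3) in Kasumi-1 siMM-mod and 1.15 ± 0.055 (SD, n = 3) in Kasumi-1 siRE-mod, and 8.30 ± 0.85 (SD, n = 3) against 2.698 ± 3.36 (SD, n = 3) in SKNO-1. In Kasumi-1 the log2 fold change of siRE-mod over siMM-mod was −2.32 (SE 0.84), which edgeR gave an adjusted p of 0.255 over all tested genes. In SKNO-1 it was −1.61 (SE 0.90), for which the adjusted p from edgeR was 0.529, so neither passed the threshold of 0.05. Of the exonic bases of *POU4F1*, 27.7% overlap *AL445209.1* on the opposite strand, which had 162 counts in all beside 4034 of *POU4F1*; no source used here states whether counting was stranded, so reads of the pair cannot be told apart.

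*PAX5* (ENSG00000196092.14, chromosome 9 from 36833269 to 37034268, minus strand), the factor that commits lymphoid progenitors to the B lineage, had the profile closest to that of *POU4F1* among the 9 genes (Pearson r = 0.98 over 12 libraries, a description across libraries that share their depth and their labels). It was at 9.86, 8.54 and 11.3 normalized CPM in the *CD34*-expressing libraries with more *RUNX1T1* and at 6.85, 6.90 and 7.94 in those with less. In the *CD34*-silent libraries it was at 1.68, 2.51 and 2.34 with more *RUNX1T1* and at 1.74, 1.78 and 1.95 with less. Each expressing library was at least 2.73-fold above each silent library. The library labelled SKNO-1 siRE-mod 1 (6.90) lay among the siMM-mod libraries, and the library labelled Kasumi-1 siMM-mod 3 (2.51) lay just above the siRE-mod libraries of that line. Between the labels, *PAX5* had a log2 fold change of −1.85 in Kasumi-1 (SE 0.56, adjusted p = 0.252, edgeR), where the groups did not overlap, and of −1.28 in SKNO-1 (SE 0.63, adjusted p = 0.495, edgeR), where they did.

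Genes of the B-cell programme were read beside *PAX5*. Of the 12 listed, 4 passed the read filter in each line, and their median log2 fold change was 0.34 among the Kasumi-1 and 1.74 among the SKNO-1 libraries, beside 0.02 and 0.03 over all genes tested. As edgeR called 0.0% of all genes in either line, the 0 calls among these tell nothing about the list. Over the 12 libraries 5 of them passed the filter, of which 3 were lower in each *CD34*-expressing than in each silent library and 2 overlapped. Of all 15863 genes, 33.1% did not overlap along *CD34*, in either direction. *CD79A*, a signalling chain of the B-cell receptor, was at 0.909 to 2.91 normalized CPM in the *CD34*-expressing libraries and at 0.909 to 2.47 in the silent ones. *IGLL1*, a surrogate light chain of early B cells, lay the other way, at 2.17 to 6.63 in the expressing and 70.5 to 206 in the silent libraries, *VPREB1* had 1 count in all, and *MS4A1*, *EBF1* and *BLK* had 0. *CD79B*, the partner chain of *CD79A*, was at 2.61 to 8.28 in expressing and 11.6 to 28.5 in silent libraries, opposite to *PAX5*, and the part of B-cell markers in the values of *PAX5* was not tested. In bulk RNA, fewer cells that express a gene and less of its RNA per cell cannot be told apart, here and for each gene below.

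*BAALC* (ENSG00000164929.17, chromosome 8 from 103140713 to 103230305, plus strand) encodes a cytoplasmic protein of neural tissue and of haematopoietic progenitors, and its level varied most among the 8 genes with counts in each library, 23.9-fold from lowest to highest. Read by *CD34* and *RUNX1T1*, it stood at 17.3, 19.0 and 18.4 normalized CPM, then at 4.42, 4.59 and 5.08, both in expressing libraries. The silent libraries with more *RUNX1T1* had 7.90, 7.48 and 7.44, more than the expressing libraries with less *RUNX1T1*, and those with less had 0.877, 0.966 and 0.794. With more *RUNX1T1* the lowest library exceeded the highest one with less by 3.40-fold among expressing and by 7.71-fold among silent libraries, whatever the label. The labels gave log2 fold changes of −1.76 in Kasumi-1 (SE 1.05, adjusted p = 0.392, edgeR) and −1.58 in SKNO-1 (SE 0.84, adjusted p = 0.510, edgeR), with overlap in both lines. *BAALC* shares 14.6% of its exonic bases with an antisense gene that had 0 counts.

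*TRH* (ENSG00000170893.4, chromosome 3 from 129974688 to 129977935, plus strand) encodes the precursor of thyrotropin-releasing hormone and, per kilobase of transcript, had the highest median level of the 9 genes (29.9 normalized CPM per kb). Its profile was close to that of *BAALC* (r = 0.97 over the 12 libraries). Expressing libraries had 87.0, 102 and 103 normalized CPM with more *RUNX1T1* and 28.6, 29.4 and 57.2 with less. Silent libraries had 44.5, 64.1 and 50.7 with more and 12.5, 15.3 and 14.5 with less. The gap between more and less *RUNX1T1* was 1.52-fold among the expressing and 2.91-fold among the silent libraries, while the 2 libraries that stood lowest among the expressing, SKNO-1 siMM-mod 3 and SKNO-1 siRE-mod 1, carried different siRNA labels. In Kasumi-1 the labelled groups did not overlap (means 74.9 ± 24.8 and 25.9 ± 21.5, SD, n = 3 each), yet the log2 fold change of −1.53 did not pass the threshold (SE 0.61, adjusted p = 0.276, edgeR). For SKNO-1 it was −1.28 (SE 0.56, adjusted p = 0.472, edgeR). *TRHR*, the receptor of the hormone, reached at most 0.391 normalized CPM.

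*UBASH3B* (ENSG00000154127.10, chromosome 11 from 122655722 to 122814473, plus strand) encodes STS-1, a phosphatase that dampens tyrosine kinase signalling. It was at 201, 196 and 197 normalized CPM in the expressing libraries with more *RUNX1T1* and at 80.4, 79.6 and 90.2 in those with less, a gap of 2.17-fold. The silent libraries lay between 55.3 and 71.3, with 71.3, 62.9 and 67.1 at more *RUNX1T1* and 55.7, 59.2 and 55.3 at less, a separation that was lost under library totals. *CD34*-expressing libraries exceeded silent ones by only 1.12-fold at the nearest pair. *UBASH3B* was thus high in 3 libraries, all labelled siMM-mod, and within a narrow band in the other 9, which hold 3 labelled siMM-mod and 6 labelled siRE-mod. Its log2 fold changes were −0.98 in Kasumi-1 (SE 0.43, adjusted p = 0.302, edgeR) and −1.18 in SKNO-1 (SE 0.36, adjusted p = 0.466, edgeR), and only in SKNO-1 did the groups not overlap, by 80.4 in the lowest siMM-mod against 79.6 in the highest siRE-mod library. The paralog *UBASH3A*, a T-cell gene, was at no more than 0.043 in expressing libraries and at 0.174 to 0.531 in silent ones.

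*SIPA1L2* (ENSG00000116991.10, chromosome 1 from 232397965 to 232561558, minus strand) belongs to a family of GTPase-activating proteins for Rap. With more *RUNX1T1* it was higher in expressing libraries (22.0, 19.7 and 21.5 normalized CPM against 10.9, 11.1 and 10.4 with less). In silent libraries the order was the opposite, 5.11, 4.73 and 5.82 with more *RUNX1T1* against 9.46, 10.1 and 9.34 with less. These gaps, 1.78-fold and 1.61-fold, held under the 3 scalings, while the gap between expressing and silent libraries was absent under library totals. The log2 fold change between labels was −0.58 in Kasumi-1 (SE 0.56, adjusted p = 0.578, edgeR) and −1.003 in SKNO-1 (SE 0.40, adjusted p = 0.466, edgeR). Among its relatives, *SIPA1* ranged from 10.3 to 60.2, *SIPA1L1* from 1.29 to 3.31 and *SIPA1L3* from 38.4 to 61.9, each with overlap across *CD34*. In silent libraries *SIPA1* (10.3 to 15.9 against 49.9 to 58.0) and *SIPA1L1* (1.29 to 1.90 against 3.22 to 3.31) were also lower with more *RUNX1T1*, while *SIPA1L3* overlapped. In expressing libraries each of these relatives overlapped by *RUNX1T1*.

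*IGFBP7* (ENSG00000163453.11, chromosome 4 from 57030773 to 57110385, minus strand) encodes a secreted binder of insulin-like growth factors, and it was the only member of the list that was lower with more *RUNX1T1* within both *CD34* states. Expressing libraries with more *RUNX1T1* had 22.0, 27.9 and 25.5 normalized CPM, and those with less had 82.2, 75.6 and 113. Silent libraries had 6.13, 11.4 and 10.0 with more and 22.6, 25.2 and 25.5 with less. The library with less *RUNX1T1* exceeded that with more by at least 2.71-fold in the first and 1.98-fold in the second case, so the siMM-mod label covered values from 11.4 to 113 in Kasumi-1 and the siRE-mod label values from 6.13 to 75.6 in SKNO-1. Label contrasts were accordingly wide, −1.37 in Kasumi-1 (SE 0.88, adjusted p = 0.422, edgeR) and −0.30 in SKNO-1 (SE 0.93, adjusted p = 0.931, edgeR). *IGFBP7* shares 18.3% of its exonic bases with *POLR2B* and *IGFBP7-AS1* on the opposite strand, and *POLR2B* was at 210 to 582 normalized CPM, so reads of this gene may include reads of its neighbours. Of the other binders, *IGFBP2* was at 25.8 to 60.0 in expressing and 87.4 to 225 in silent libraries, and *IGFBP1* and *IGFBP3* had 0 counts. *IGFBP4* overlapped across *CD34* (14.8 to 61.7 and 15.2 to 55.6). Unlike *IGFBP7*, *IGFBP4* was higher with more *RUNX1T1* in both states. It was at 52.7 to 61.7 against 14.8 to 22.5 in expressing libraries and at 32.4 to 55.6 against 15.2 to 19.1 in silent ones.

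*ROBO1* (ENSG00000169855.20, chromosome 3 from 78597239 to 79767998, minus strand), the receptor of the guidance ligands SLIT, varied least of the 8 genes (2.40-fold) and lay opposite to *POU4F1*. *CD34*-expressing libraries had 80.9, 76.2 and 76.3 normalized CPM with more *RUNX1T1* and 66.3, 64.9 and 75.7 with less. *CD34*-silent libraries were all higher, at 156, 143 and 152 with more *RUNX1T1* and at 103, 137 and 114 with less, and the lowest silent library was 1.28-fold above the highest expressing one. Within each *CD34* state the order by *RUNX1T1* held under TMM and DESeq2 size factors and not under library totals. *ROBO1* averaged 98.4 ± 38.9 and 123 ± 25.9 (SD, n = 3 each) in Kasumi-1 siMM-mod and siRE-mod, with a log2 fold change of 0.33 (SE 0.30, adjusted p = 0.550, edgeR), and 74.5 ± 7.45 and 119 ± 47.8 (SD, n = 3 each) in SKNO-1, with 0.67 (SE 0.32, adjusted p = 0.488, edgeR). The SLIT ligands were scarce: *SLIT1* was at 0.911 to 1.45 in expressing and 0.091 to 0.306 in silent libraries, *SLIT2* at 0.400 to 1.27 and 0 to 0.190, and *SLIT3* had 1 count in all. *SRGAP2*, which acts downstream of ROBO receptors, was at 97.8 to 132 in expressing and 54.1 to 68.7 in silent libraries, the reverse of *ROBO1*, as was *SRGAP3* at 1.33 to 2.95 and 0.215 to 1.14, whereas *SRGAP1* lay the same way as *ROBO1*, at 0.306 to 0.745 and 0.921 to 2.68.

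*CAV1* (ENSG00000105974.12, chromosome 7 from 116525001 to 116561184, plus strand) encodes caveolin-1, the scaffold of caveolae in the plasma membrane. It was nearly on or off: the expressing libraries had 0, 0 and 1 counts with more *RUNX1T1* and 0, 1 and 0 with less, whereas the silent libraries had 77, 91 and 107 counts with more and 82, 109 and 60 with less. In normalized CPM that is at most 0.015 in expressing libraries, below the 3 counts (0.038 to 0.047 normalized CPM in these libraries, counting error only) that a count of 0 allows, and 0.627 to 0.986 in silent ones. By label, the 3 libraries of SKNO-1 siMM-mod had 0 counts while the library labelled Kasumi-1 siMM-mod 3 had the highest level of all. With fewer than 600 reads in total *CAV1* did not enter the main tests, and without that filter edgeR gave it an adjusted p of 0.785 for Kasumi-1 and 0.422 for SKNO-1. *CAV2*, the partner of caveolin-1 in caveolae, had the same division (0 to 0.054 and 0.345 to 0.669 normalized CPM), *CAVIN1* overlapped (0.700 to 22.8 and 13.9 to 44.0) and *CAVIN3* had 0 counts.

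Because stromal and endothelial cells use *CAV1*, *IGFBP7* and *ROBO1* as well, the markers of those cells were read beside them. The 5 endothelial markers summed to 2.54 to 9.01 normalized CPM in *CD34*-expressing and 13.9 to 19.99 in silent libraries, mostly *PECAM1* (2.23 to 8.34 and 11.4 to 17.7). *VWF* (0 to 0.045 and 0.422 to 3.26) and *KDR* (0 to 0.130 and 0.918 to 2.81) were higher in the silent libraries as well, without overlap, while *TEK* overlapped and *CDH5* was at 0 in the silent libraries and at no more than 0.448 in the expressing ones. The 6 stromal markers summed to 0.075 to 0.217 and 0.273 to 1.24, mostly *PDGFRB*, which did not overlap (0.013 to 0.110 and 0.157 to 1.24). *COL1A2* and *COL1A1* were at 0 in the silent libraries, and *COL3A1*, *LUM* and *DCN* reached at most 0.115 there. The 7 progenitor markers, which include *CD34* itself, summed to 12789 to 26950 in expressing and 2259 to 6645 in silent libraries, mostly *MPO* (10437 to 22667 and 1783 to 5750). *KIT* (682 to 999 and 97.0 to 516), *ELANE* (535 to 1975 and 58.3 to 131) and *AZU1* (281 to 1103 and 28.6 to 60.1) did not overlap either. *CD33* (38.1 to 76.4 and 45.1 to 71.7) and *SPI1* (76.4 to 189 and 75.97 to 197) overlapped. *IL5RA*, the interleukin-5 receptor of eosinophils, was at no more than 0.179 in expressing and 36.3 to 68.0 in silent libraries. The eosinophil markers *EPX* (0.171 to 0.462 and 1.15 to 3.32) and *CLC* (0 to 0.383 and 3.18 to 80.8) did not overlap either, while *PRG2* did (0.217 to 194 and 6.19 to 88.9). The 4 eosinophil markers together were at 0.457 to 194 and 48.4 to 239, the 4 T-cell markers at 1.14 to 3.80 and 0.261 to 0.943, and the 4 erythroid markers at 0.991 to 1.77 and 1.93 to 2.67. Their part in the values of the 9 genes was not tested.

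**Figure D2:**
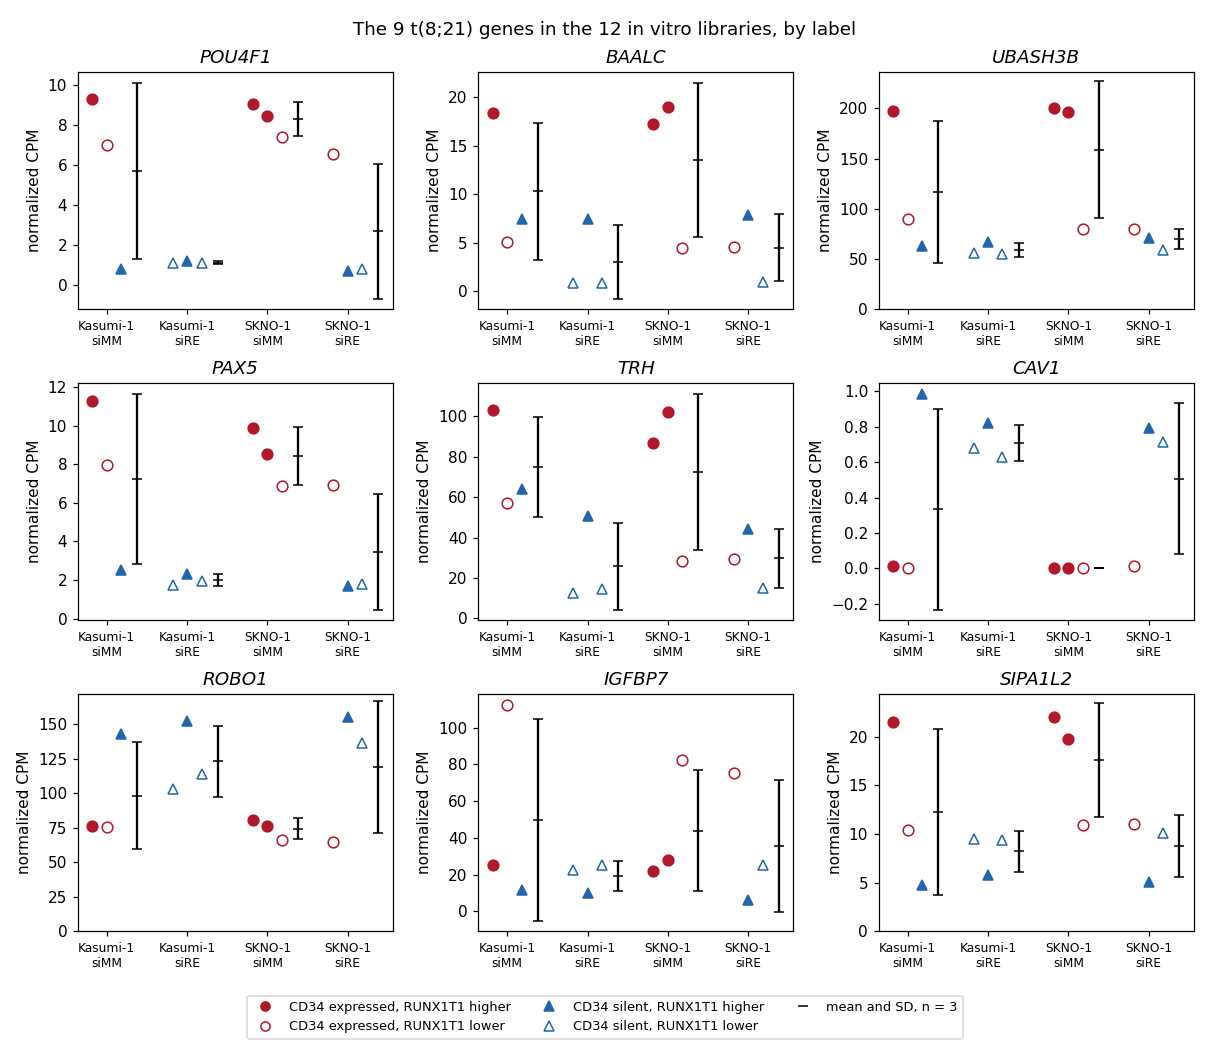
Normalized CPM of each of the 9 genes (vertical axes, 1 panel per gene) in the 12 in vitro libraries by cell line and siRNA label (horizontal axis), with 1 point per library, and the mean and SD of the 3 libraries of a label beside them. Colour and shape mark *CD34* and filling marks *RUNX1T1*. The library labelled Kasumi-1 siMM-mod 3 sits at 0.802 for *POU4F1*, apart from its 2 replicates at 9.33 and 7.00, and the library labelled SKNO-1 siRE-mod 1 sits at 6.57, apart from 0.700 and 0.822.

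The comparison of siRE-mod with siMM-mod asks whether knockdown of the fusion alters these genes. By edgeR's quasi-likelihood test 0 of the 8 tested genes passed an adjusted p of 0.05 in either line, as did 0.0% of the 13608 genes tested in Kasumi-1 and 0.0% of the 13628 in SKNO-1. The log2 fold change was negative for 7 of the 8 in each line, with a median of −1.45 in Kasumi-1 (0.020 over all genes tested) and −1.23 in SKNO-1 (0.027 over all genes tested), and *ROBO1* was the exception in both. The unadjusted p was under 0.05 for 3 of the 8 in Kasumi-1 and 2 in SKNO-1, beside 2435 and 1455 of all genes, and edgeR's smallest adjusted p over all genes was 0.252 and 0.466. DESeq2, the tool named in the methods of the study, called 8.55% of genes in Kasumi-1, *PAX5* and *POU4F1* among them (log2 fold changes −1.87 and −2.35, adjusted p = 0.027 and 0.048, DESeq2), and 2.73% in SKNO-1 with 0 of the 8 genes. The labelled groups did not overlap for *PAX5* and *TRH* in Kasumi-1, where 21.5% of 15863 genes did not, and for *POU4F1* and *UBASH3B* in SKNO-1, where 11.9% did not.

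In each line the calls depended on 1 library. When Kasumi-1 siMM-mod 3, the *CD34*-silent library of its group, was left out, edgeR called 32.2% of 13200 genes in Kasumi-1, with 4 of the 8 genes among them. *POU4F1* then had a log2 fold change of −2.83 (SE 0.23, adjusted p = 0.00071, edgeR), *PAX5* of −2.25 (SE 0.25, adjusted p = 0.0019, edgeR), *UBASH3B* of −1.27 (SE 0.32, adjusted p = 0.031, edgeR) and *ROBO1* of 0.70 (SE 0.19, adjusted p = 0.038, edgeR). When SKNO-1 siRE-mod 1, the *CD34*-expressing library of its group, was left out, 19.3% of 13119 genes were called, with *POU4F1* at −3.47 (SE 0.33, adjusted p = 0.0016, edgeR), *PAX5* at −2.31 (SE 0.32, adjusted p = 0.0055, edgeR) and *ROBO1* at 0.95 (SE 0.17, adjusted p = 0.012, edgeR). In both of these fits the remaining groups differ in *CD34* without overlap, so the labelled siRNA and the *CD34* state cannot be told apart in them. Leaving out any other single library gave 0 calls in either line.

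**Figure D3:**
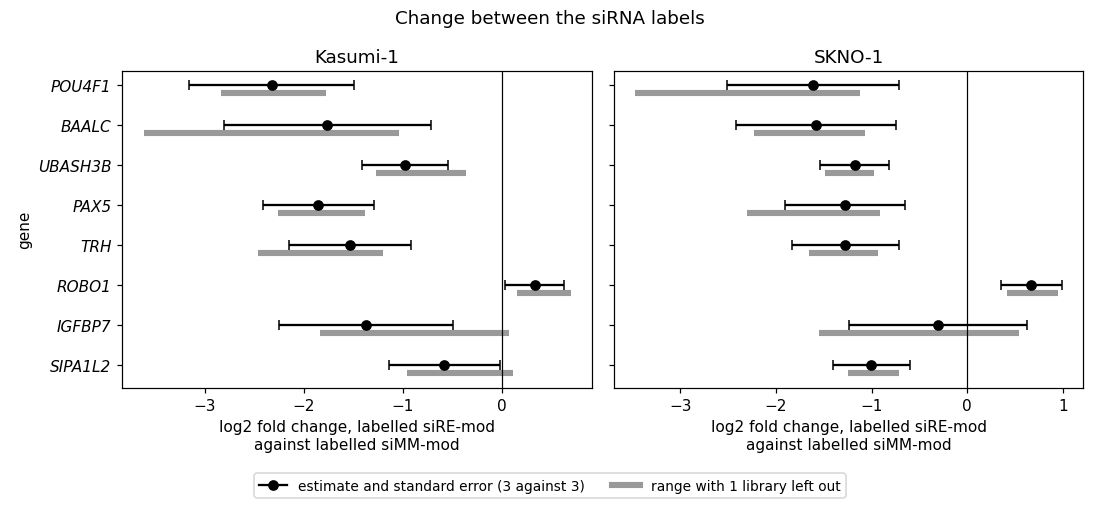
Log2 fold change of the 8 tested genes between libraries labelled siRE-mod and siMM-mod (horizontal axes) in Kasumi-1 (left) and SKNO-1 (right). Points and thin bars show the edgeR estimate with its SE from 3 against 3 libraries, and grey bars show the range when each library was left out in turn. *POU4F1* spans −2.83 to −1.78 in Kasumi-1 and −3.47 to −1.12 in SKNO-1, and the grey bars of *IGFBP7* cross 0 in both lines.

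The cell line labels were compared in the same way. Across both siRNA labels, SKNO-1 minus Kasumi-1 ranged from −0.23 (*ROBO1*) to 0.88 (*POU4F1*, SE 0.63) on the log2 scale, with a median of 0.35 for the 8 genes and 0.027 for all genes, and 0.0% of 15863 genes were called by edgeR (2050 at an unadjusted p under 0.05) and 1.71% by DESeq2. The siRNA contrast of SKNO-1 minus that of Kasumi-1 ranged from −0.43 (*SIPA1L2*) to 1.06 (*IGFBP7*) with a median of 0.30, beside 0.105 over all genes, and again 0.0% of 15863 genes were called by edgeR (106 at an unadjusted p under 0.05) and 0.801% by DESeq2. None of the 8 genes passed either test with either tool.

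Set against all genes, separation along *CD34* and *RUNX1T1* was common. Under TMM, 5 of the 8 genes that passed the read filter did not overlap between *CD34*-expressing and silent libraries, where 33.1% of 15863 genes did not. Between more and less *RUNX1T1* the 8 did not overlap among the expressing libraries, where 38.2% of genes did not, and 6 of the 8 among the silent libraries, where 43.3% did not. With 3 libraries on a side such gaps can be small, and across the 3 scalings they held for 4 of the 8 genes along *CD34* (27.1% of all genes), 6 among the expressing (28.1%) and 4 among the silent libraries (35.1%).

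**Figure D4:**
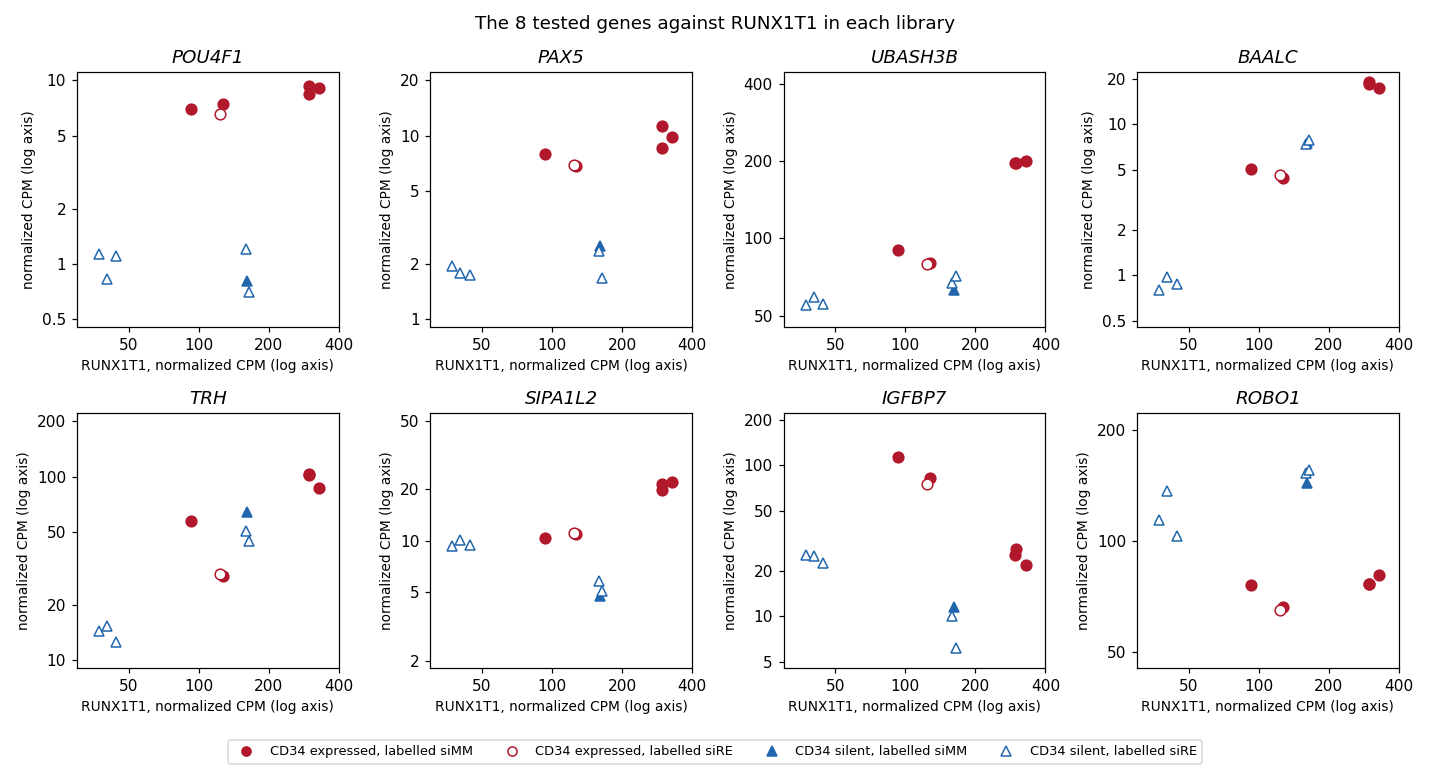
Level of the 8 tested genes (vertical axes, normalized CPM, log scale) against *RUNX1T1* (horizontal axes, normalized CPM, log scale), with 1 point per in vitro library; circles are *CD34*-expressing and triangles *CD34*-silent libraries, filled where labelled siMM-mod and open where labelled siRE-mod. *POU4F1* forms 2 bands at 6.57 to 9.33 and 0.700 to 1.21. Within circles and within triangles, the set with more *RUNX1T1* lies higher for *BAALC* and lower for *IGFBP7* than the set with less. The open circle lies beside filled circles and the filled triangle beside open ones in most panels.

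Libraries whose label differed from that of their *CD34* neighbours were placed against the range of those neighbours, gene by gene. The share of all genes inside such a range was not counted, so these places are a description only. The 1 siRE-mod library among the *CD34*-expressing, SKNO-1 siRE-mod 1, lay within the range of the 5 siMM-mod libraries for *BAALC*, *PAX5*, *TRH*, *IGFBP7* and *SIPA1L2*. It lay below them for *POU4F1* (6.57 against 7.00), *UBASH3B* (79.6 against 80.4) and *ROBO1* (64.9 against 66.3), and its 1 count of *CAV1* put it above. Kasumi-1 siMM-mod 3, the 1 siMM-mod library among the *CD34*-silent, lay within the range of the 5 siRE-mod libraries for *POU4F1*, *BAALC*, *UBASH3B*, *ROBO1* and *IGFBP7*, above it for *PAX5* (2.51 against 2.34), *TRH* (64.1 against 50.7) and *CAV1* (0.986 against 0.823), and below it for *SIPA1L2* (4.73 against 5.11).

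Per kilobase of transcript, the order of the median level over the 12 libraries was *TRH* (29.9 normalized CPM per kb), *IGFBP7* (13.1), *UBASH3B* (8.42), *ROBO1* (8.32), *BAALC* (1.57), *SIPA1L2* (1.34), *POU4F1* (0.857), *PAX5* (0.489) and *CAV1* (0.083). Neighbours in this order overlapped over the libraries with 1 exception, the step from *ROBO1* (lowest library 5.87) to *BAALC* (highest library 4.75).

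Genes outside the list had profiles very close to those of single members, measured by Pearson's r of log2 CPM over the 12 libraries among 13959 genes and given as a description, since the points share libraries and the 4 sets. *POU4F1* was followed most closely by *PWWP3A* and *TULP4* (both r = 0.996), with *TULP4* at 59.9 to 69.4 normalized CPM in expressing and 19.4 to 24.5 in silent libraries. *PAX5* was followed by *SDC1* (r = 0.994), the plasma-cell antigen CD138, and *TSHZ3* (r = 0.993), which was at 5.34 to 12.5 in expressing and at no more than 0.033 in silent libraries. *BAALC* had *MEF2C* (r = 0.998), a transcription factor of lymphoid and myeloid progenitors, and *ITPRIPL2* (r = 0.994), and *TRH* had *JUP* (r = 0.994), the junction protein plakoglobin, and *PCK2* (r = 0.993). Close to *UBASH3B* was *ENDOD1* (r = 0.977), to *SIPA1L2* *COQ2* (r = 0.987) and *PI4K2A* (r = 0.974), to *IGFBP7* *NECTIN1* (r = 0.991) and *ASRGL1* (r = 0.981), and to *ROBO1* *SMAP2* (r = 0.990).

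Relatives and partners of the 9 genes and further genes that the study ties to RUNX1/ETO were read in the same way. Of 31 relatives and partners, 11 passed the read filter in Kasumi-1 and 12 in SKNO-1, and, as for all genes, 0 were called by edgeR, with median log2 fold changes of 0.087 and 0.025. Of 8 further genes of the study (*CCND2*, *TERT*, *ANGPT1*, *LAPTM5*, *CEBPA*, *OGG1*, *RPS6KA1* and *DEPTOR*) all were tested and 0 were called, with medians of 0.34 and 0.58. Among those 8, *ANGPT1*, a ligand of the TEK receptor, was at 46.7 to 56.6 normalized CPM in expressing libraries with more *RUNX1T1*, at 2.77 to 3.58 in those with less and at no more than 0.433 in silent ones, and *TERT*, the catalytic subunit of telomerase, was at 5.11 to 7.92 in expressing and 8.84 to 15.9 in silent libraries. The other 6 overlapped across *CD34*, but 4 of them did not overlap by *RUNX1T1* within either *CD34* state. Of all 15863 genes, 38.2% did not overlap by *RUNX1T1* among the expressing and 43.3% among the silent libraries. The share of genes without overlap in both was not counted. *OGG1*, a DNA repair glycosylase whose locus overlaps that of *CAMK1*, was at 1.11 to 1.21 with more *RUNX1T1* and 9.18 to 10.5 with less in expressing libraries, and in silent ones its lowest value was 1.81 with more and 12.8 with less, without overlap. *LAPTM5* (33.7 to 42.9 and 175 to 322, then 132 to 159 and 356 to 449) and *RPS6KA1* (22.5 to 24.9 and 74.5 to 111, then 66.5 to 80.5 and 177 to 228) were likewise lower with more *RUNX1T1*. *DEPTOR*, an inhibitor of mTOR, was higher with more (52.2 to 55.1 and 15.99 to 20.4, then 125 to 131 and 29.7 to 35.5).

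RUNX proteins recognise the letters TGTGGT or TGCGGT, and the 250 bases upstream of the start sites of the 9 genes were searched for both motifs on either strand. RefSeq promoters (GRCh38.p14) were matched for 7 of the 9 genes, with 10 start sites. Either motif stood in 16.3% of 35116 promoters (TGTGGT in 10.98% and TGCGGT in 5.84%), and in 1 of the 10 windows, the one upstream of the third *CAV1* start site, 55 bases before it. The windows of *POU4F1*, *TRH* and *CAV1* are shown because these genes carry the patterns along *CD34* upwards, along *RUNX1T1*, and along *CD34* downwards; capitals mark the motif, and a match describes these letters and not a bound site. The *POU4F1* window is chr13:78603553-78603802 on the minus strand, that of *TRH* chr3:129974470-129974719 and that of *CAV1* chr7:116526112-116526361, both on the plus strand, all written 5′ to 3′.
POU4F1: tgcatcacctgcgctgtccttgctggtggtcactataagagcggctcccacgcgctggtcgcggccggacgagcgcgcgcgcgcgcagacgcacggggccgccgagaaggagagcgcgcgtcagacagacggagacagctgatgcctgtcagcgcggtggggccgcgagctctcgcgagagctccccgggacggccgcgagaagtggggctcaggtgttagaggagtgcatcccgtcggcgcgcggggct
TRH: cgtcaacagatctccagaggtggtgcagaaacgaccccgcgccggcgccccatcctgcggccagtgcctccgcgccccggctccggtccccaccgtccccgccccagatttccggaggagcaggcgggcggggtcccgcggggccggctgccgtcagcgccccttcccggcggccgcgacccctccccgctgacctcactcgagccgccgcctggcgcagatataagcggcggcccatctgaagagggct
CAV1: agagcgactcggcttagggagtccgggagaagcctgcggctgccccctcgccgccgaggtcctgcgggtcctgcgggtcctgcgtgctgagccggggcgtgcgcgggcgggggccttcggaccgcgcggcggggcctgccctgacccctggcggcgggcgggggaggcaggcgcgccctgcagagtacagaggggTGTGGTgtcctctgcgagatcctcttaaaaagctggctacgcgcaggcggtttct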

How the data were processed

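The authors trimmed reads with Trim Galore, aligned them to GRCh38 with STAR and counted reads over the exons of each gene; the headers of the deposited tables name Rsubread 1.32.4 under R 3.5.1, and the strand setting is not given in the sources used here. The deposited in vitro tables hold raw counts together with CPM and FPKM made by the authors from the same counts, and the deposited in vivo tables hold counts in the layout of HTSeq. Only the counts were used for tests. Each fit took the genes with 600 or more reads over its libraries, and edgeR 4.0.16 (TMM, quasi-likelihood test with robust estimation) in R 4.3.3 compared the labelled groups, with Benjamini-Hochberg adjustment over all tested genes and a threshold of 0.05. On counts simulated from the real means and library sizes with a dispersion of 0.02, 200 of 200 changed genes were recovered in each comparison. Between 8 and 11 unchanged genes were called as well. The real common dispersions were higher, at 0.197 to 0.255, so this recovery checks the procedure and does not measure the power of the real fits. Whether replicate numbers paired the libraries could not be told, and the main fits used no pairing. DESeq2 1.42.0, its size factors, library totals, no read filter, the replicate block, a common fit and each library left out were alternatives. Profiles were compared on log2 CPM (prior count 2) over genes with 600 reads and a mean of at least 1 normalized CPM. The genes and lists, and the rule for naming genes (the 9 genes, listed relatives, B-lineage and study genes, and the 2 closest profiles of each), were chosen with earlier results of these data known; *CD79B*, *EBF1*, *BLK*, and the study and marker genes given singly were named after their values were seen. Some genes under this rule are not reported here. Python 3.11.15 made the tables and figures.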

Additional observations from a re-analysis of the deposited data

How the results depend on the processing

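Counts of called genes depended on the tool and on single libraries. edgeR called 0 genes in each of the 4 comparisons, whereas DESeq2 called 1163 between the siRNA labels in Kasumi-1 (214 higher, 949 lower), 372 in SKNO-1 (354 higher, 18 lower), 127 for the difference of the siRNA contrast and 272 between the lines. Leaving out single libraries gave edgeR counts of 0 to 4250 in Kasumi-1, 0 to 2535 in SKNO-1 and 0 to 70 between the lines (70 without SKNO-1 siRE-mod replicate 3), and of 0 for the difference of the contrasts. Library totals, an alternative added after seeing the data, gave 2 calls between the lines, and moved the median log2 fold change of all genes to 0.325 in Kasumi-1, where it was 0.020 with TMM, and to 0.136 in SKNO-1, where it was 0.027. The causes were not tested.

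With the replicate number as a block, edgeR called 0 genes in each comparison. Deviations of same-numbered libraries correlated at −0.272 to −0.013 in Kasumi-1 and at −0.246 to −0.021 in SKNO-1. These deviations also hold the *CD34* and *RUNX1T1* differences inside a label, so they cannot show whether replicates were paired. With the block, edgeR's smallest adjusted p was 0.063 in SKNO-1 (0.466 without) and 0.133 in Kasumi-1 (0.252 without). Its unadjusted p was under 0.05 for 5 of the 8 genes in SKNO-1 (2 without) and for 1 in Kasumi-1 (3 without). Under the block, the difference of contrasts turned to −0.65 for *POU4F1* and −0.14 for *IGFBP7*, and the line difference of *TRH* to −0.019; without the read filter the last was −0.029.

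With 1 library left out, the log2 fold change between labels ranged from −1.84 to 0.071 for *IGFBP7* and from −0.96 to 0.12 for *SIPA1L2* in Kasumi-1, while in SKNO-1 that of *IGFBP7* ranged from −1.55 to 0.54. The difference of contrasts then ranged from −1.14 to 1.16 for *POU4F1*, from −0.55 to 2.03 for *BAALC*, from −0.82 to 0.045 for *UBASH3B*, from −0.44 to 0.92 for *PAX5*, from −0.17 to 1.19 for *TRH*, from −0.058 to 0.64 for *ROBO1* and from −0.37 to 1.89 for *IGFBP7*. The line difference ranged from −0.12 to 0.47 for *TRH* and from −0.23 to 1.05 for *IGFBP7*. For single genes, 4 of 176 values under the other alternatives and 25 of 288 with a library left out changed sign, and 2 and 7 newly passed the threshold. Depth limits *CAV1* most, with at most 109 counts in a library.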
